A study of Mus musculus with 8 samples.

Results

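The protein-coding genes of the cytosolic ribosome were followed in mouse liver after injury with carbon tetrachloride (CCl4). Members were taken by gene symbol: every probe whose symbol begins with Rpl or Rps and a number, or is Rplp0, Rplp1 or Rplp2, without the Rps6k kinases and without pseudogenes. This gave 82 of the 25697 probes, for 65 genes. Of these, 64 probes for 55 genes passed the filter on low signal and were tested among 7257 genes, and the probe used for each of the 55, its brightest, was above background on all 8 arrays. The other 10 genes had no probe above background on any array, with raw intensities from 36.8 to 80.1, so no level is given for them. They were *Rpl14*, *Rpl17*, *Rpl21*, *Rpl39l*, *Rpl3l*, *Rpl6*, *Rplp2*, *Rps15a*, *Rps23* and *Rps23rg1*. The tested genes code for 20 proteins of the small (40S) subunit, 28 of the large (60S) subunit, 2 of the stalk and 4 paralogs. The symbol rule also takes in *Rps19bp1*, a binding partner of Rps19 and not a subunit of the ribosome.

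Total RNA came from livers of Balb/c mice aged 2 months, with 1 array per sample. Wild-type mice given vehicle and IL-4/IL-13-/- mice (here the knockout, which lacks both cytokine genes) given vehicle had 1 array each. Wild-type and knockout mice given CCl4 had 3 arrays each. CCl4 is a solvent that hepatocytes turn into a toxic radical. The sources used here give neither its dose, its route nor the time to sampling. They also do not say whether the arrays came from separate animals or pools, so a p-value below reflects the variation among these arrays alone, part or all of which may be technical.

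A cytosolic ribosome joins a small subunit, which reads the mRNA, to a large subunit, which forms the peptide bond. Most of its proteins are made in equal numbers and are needed by every cell, and their mRNAs share a run of pyrimidines at the start, the terminal oligopyrimidine (TOP) motif, through which growth signals control their translation. Some subunits have paralogs that can replace them, and some have functions outside the ribosome. The liver, which makes most plasma proteins, is rich in ribosomes, and ribosome production is known to increase when hepatocytes prepare to divide.

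Intensities are given on a log2 scale after background correction and quantile normalization. Among the hepatocyte markers 6 of 7 were above background, with summed linear levels from 63100 to 75400 over the 8 arrays, although *Fgb* was not detected and the *Alb* probe read only 5.67 to 6.42 on the log2 scale. With CCl4, 0 of the 6 rose and 1, *Apoh*, fell, with a log2 difference of -0.49 (adjusted p = 0.0391, limma). Markers of other cell types also moved with CCl4. The summed neutrophil markers were 560 and 724 on the vehicle arrays, 2060 to 2750 on wild-type CCl4 arrays and 2000 to 8000 on knockout CCl4 arrays, and the defining marker *Ngp* was not detected. The monocyte and macrophage sum was 2860 and 3640 after vehicle, 4790 to 6330 on wild-type and 4050 to 5920 on knockout CCl4 arrays. In this list *Lgals3* and *Cd14* rose, by 2.07 and 2.43, and the other 4 tested markers had differences from -0.02 to 0.23 and were not called. Of the stellate cell markers 4 of 6 rose and 1 fell, of the erythroid markers 0 of 3 rose and 2 fell, and of the sinusoidal endothelial markers 1 of 4 rose and 0 fell. Their sums on the vehicle, wild-type CCl4 and knockout CCl4 arrays were 1970 to 2790, 3760 to 5390 and 2960 to 3010 for stellate cells, 11000 to 19000, 7640 to 17900 and 6760 to 11400 for erythroid cells, and 3400 to 4630, 5370 to 5920 and 4200 to 4490 for endothelium. Between the genotypes after CCl4, *Col1a1*, *Lyve1* and *Stab2* were lower in the knockout, with log2 differences of -1.45, -0.84 and -0.59. Of the B and T cell markers, 1 of 7 was above background on any array. The part of these cells in the results below was not tested, and in bulk liver fewer cells of a type and less RNA per cell cannot be told apart.

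After CCl4, the ribosomal protein genes were mostly higher. As the mean of both genotypes, 29 of the 55 rose and 1 fell at an adjusted p under 0.05 (limma, Benjamini-Hochberg over all 7257 genes). Among all genes tested, 18.9% rose and 18.6% fell. The median difference over the members was 0.48 on the log2 scale, against -0.02 over all genes. The members that rose included *Rps19*, *Rplp0*, *Rpl13a*, *Rpl12*, *Rps4x* and the paralog *Rpl22l1*, and the member that fell was *Rpl22*. When arrays were scaled on the probes of all other genes, 17 rose and 1 fell. With the replicate number added to the fit as a block, 16 members were called. The shares of all genes called in these alternative fits are not given here. Each vehicle group had only 1 array, so leaving one out leaves the response of a single genotype, which is given below.

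**Figure D1:**
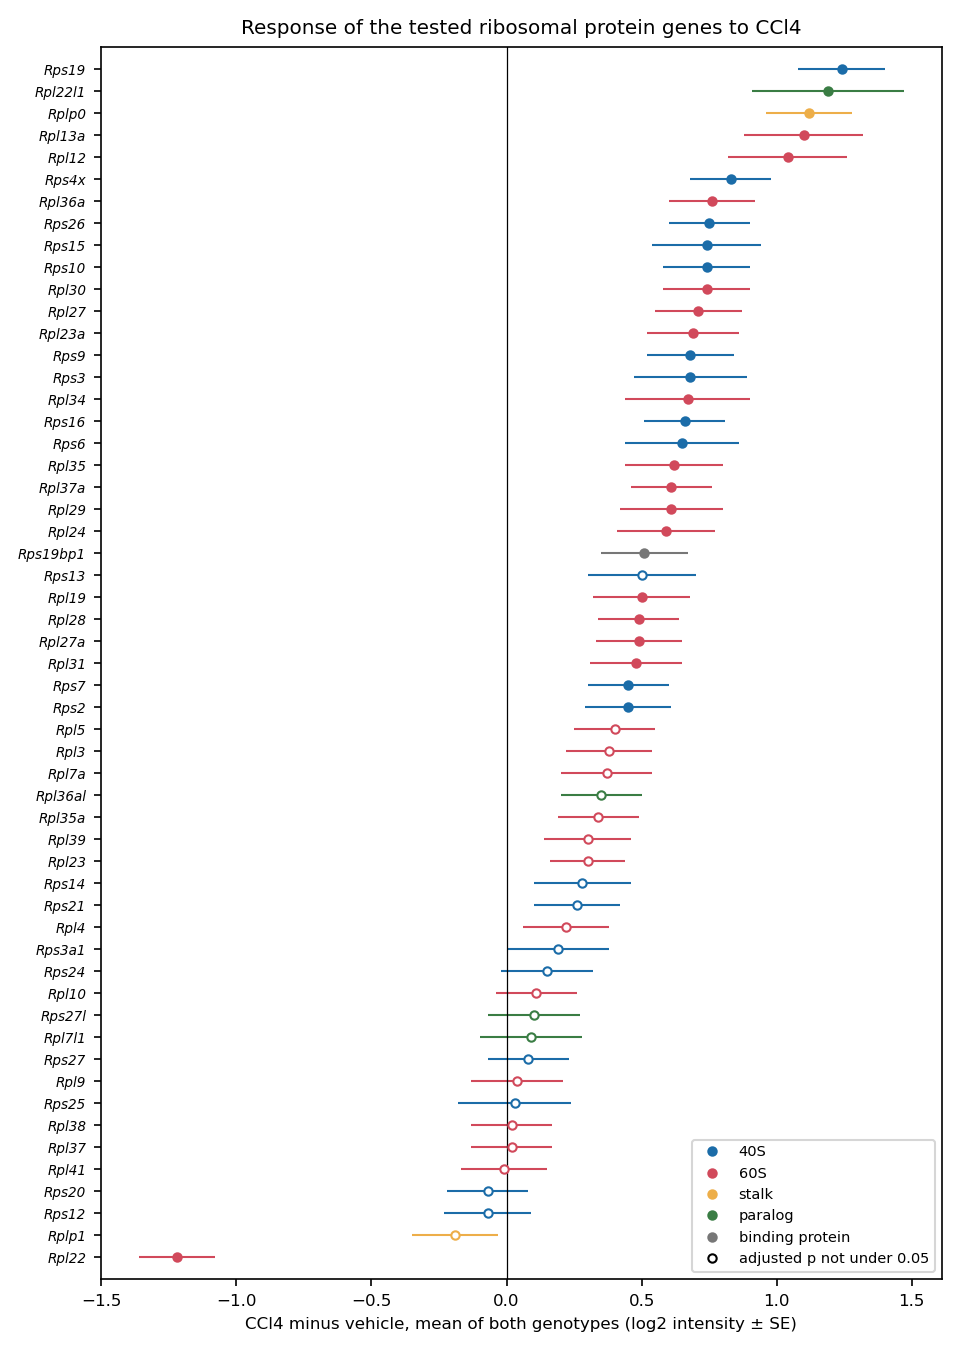
Difference between CCl4 and vehicle arrays for each of the 55 tested genes, as the mean of both genotypes on the log2 scale (points) with its standard error (bars). Filled points have an adjusted p under 0.05. 50 genes lie above 0, and Rpl22 stands apart at -1.22.

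In 26 of the 55 genes, all 6 CCl4 arrays lay above both vehicle arrays, which was so for 19% of all genes. In 1 gene, *Rpl22*, all 6 lay below both, against 19.8% of all genes. The increases were spread over both subunits. Of the 40S proteins 11 of 20 rose and 0 fell, with a median of 0.48, and of the 60S proteins 15 of 28 rose and 1 fell, with a median of 0.49.

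*Rpl22* codes for a 60S protein that binds RNA and that, in mice, is known to hold down its own paralog *Rpl22l1*. The intensity of *Rpl22* was 9.44 on the wild-type vehicle array and 9.27 on the knockout vehicle array. On the CCl4 arrays it was 8.13, 8.24 and 8.22 for wild type and 8.13, 8.08 and 8.0 for the knockout. Every CCl4 array was lower than either vehicle array. The difference was -1.22 ± 0.14 (SE), with an adjusted p of 9.51e-05 (limma). It kept its direction and passed the threshold in all 18 alternative analyses, between -1.28 and -1.12. The gene fell in both genotypes, by 1.24 in wild type (adjusted p = 0.00152, limma) and by 1.20 in the knockout (adjusted p = 0.00204).

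The paralog *Rpl22l1* moved the other way in the knockout, but was not called in wild type. Its intensity was 8.68 on the wild-type vehicle array and 7.96 on the knockout vehicle array. It was 8.42, 8.69 and 9.64 on the wild-type CCl4 arrays and 10.15, 9.81 and 10.30 on the knockout CCl4 arrays. The wild-type CCl4 arrays straddled their vehicle array, while all 3 knockout CCl4 arrays were above every other array. The mean difference of both genotypes was 1.19 ± 0.28 (SE, adjusted p = 0.00624, limma). It was 0.24 ± 0.39 in wild type (adjusted p = 0.697, limma) and 2.13 ± 0.39 in the knockout (adjusted p = 0.00308).

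**Figure D2:**
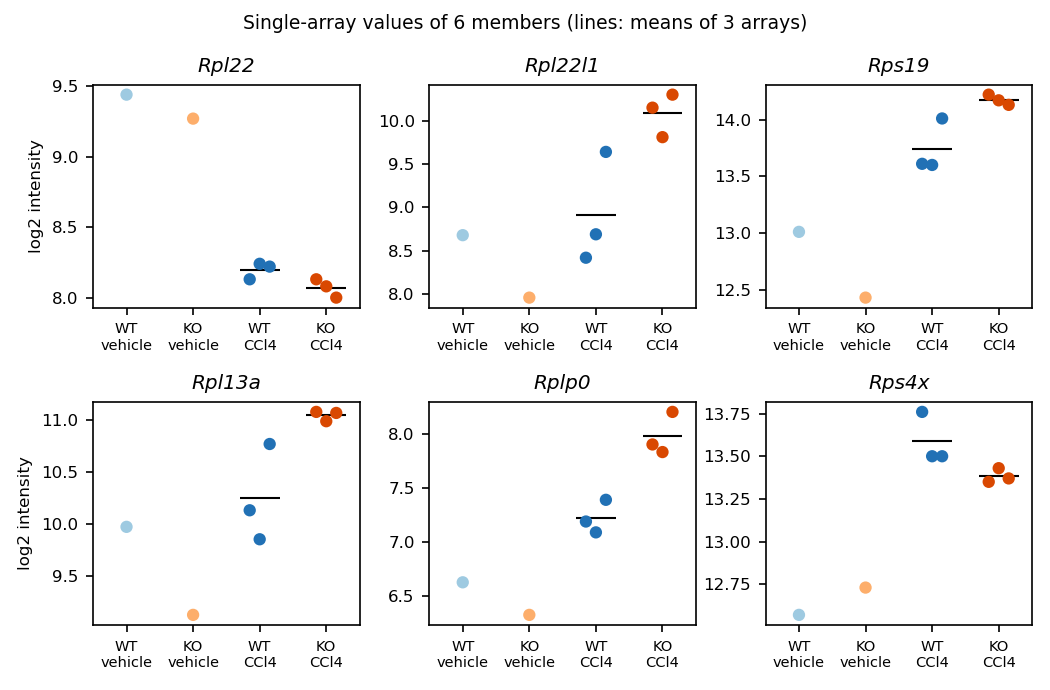
Log2 intensity on each array for 6 members, with 1 point per array and a line at the mean of the 3 arrays of each CCl4 group. Rpl22 was lower on all 6 CCl4 arrays, whereas Rpl22l1 and Rpl13a were highest on the 3 knockout CCl4 arrays and spread widely among the wild-type CCl4 arrays. The vertical scales differ between genes.

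The sequence around the start of transcription is shown for the 6 members whose responses stand out below, chosen after their values were seen, since the pyrimidine run at the start is the shared feature of TOP mRNAs. The sequences are those of RefSeq on GRCm38.p6, read 5′ to 3′ along the gene, with 60 bases before the start and 20 from it. Capitals mark the longest unbroken run of C and T that touches the 10 bases on either side of the start. RefSeq lists a pair of starts for *Rpl22*.
Rpl22 (chr4:152325666-152325745, + strand): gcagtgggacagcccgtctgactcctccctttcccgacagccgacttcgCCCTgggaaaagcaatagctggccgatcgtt
Rpl22 (chr4:152324376-152324455, + strand): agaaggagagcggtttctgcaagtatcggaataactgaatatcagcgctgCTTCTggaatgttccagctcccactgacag
Rpl22l1 (chr3:28805448-28805527, + strand): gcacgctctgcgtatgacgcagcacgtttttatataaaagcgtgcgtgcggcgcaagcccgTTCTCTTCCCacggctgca
Rpl13a (chr7:45128726-45128805, - strand): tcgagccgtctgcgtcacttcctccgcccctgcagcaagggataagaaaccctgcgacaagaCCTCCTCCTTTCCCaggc
Rpl12 (chr2:32961652-32961731, + strand): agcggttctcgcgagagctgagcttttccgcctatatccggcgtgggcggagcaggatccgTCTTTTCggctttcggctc
Rplp0 (chr5:115559407-115559486, + strand): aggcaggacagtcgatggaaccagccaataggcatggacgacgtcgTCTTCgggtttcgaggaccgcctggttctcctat
Rps4x (chrX:102189372-102189451, - strand): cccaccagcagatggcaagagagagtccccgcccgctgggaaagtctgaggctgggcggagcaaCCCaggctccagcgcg

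The run was 10 bases in *Rpl22l1* and 14 in *Rpl13a*, and 4 and 5 at the listed starts of *Rpl22* and 3 in *Rps4x*. These lengths depend on where the start is listed. The first *Rpl22* sequence holds a longer run farther before its start, which was not counted. A promoter was listed for 56 of the 65 genes. Runs of 8 or more were found in 42.9% of these, against 13.5% of all 27025 promoters. Among the 48 tested genes with a listed promoter, the median CCl4 difference was 0.48 for the 20 genes with a run of 8 or more and 0.47 for the 28 with a shorter run. The letters CCGGAAG, a site of ETS factors, searched on both strands over 300 bases, were in 35.7% of the members' promoters and in 9.12% of all. The letters AAGATGG, part of the site of the factor YY1, were in 16.1% and 6.48%. These strings can overlap by the letters AAG, and 2 members held both. The matches are a description, and the strings were chosen with the responses already known.

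Among the 40S proteins, the largest difference was that of *Rps19*, a protein needed for the maturation of 18S rRNA and mutated in Diamond-Blackfan anaemia. Its intensity was 13.01 and 12.43 on the wild-type and knockout vehicle arrays. It was 13.61, 13.60 and 14.01 on the wild-type CCl4 arrays and 14.22, 14.17 and 14.13 on the knockout CCl4 arrays. All 6 CCl4 arrays were above both vehicle arrays, and the knockout CCl4 arrays were above those of wild type. The CCl4 difference was 1.24 ± 0.16 (SE, adjusted p = 0.000188, limma). *Rps19bp1*, whose product binds Rps19, rose by 0.51 ± 0.16 (SE, adjusted p = 0.0282, limma).

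*Rps4x*, an X-linked 40S protein, was the member with the largest increase in wild type. Its intensity was 12.57 and 12.73 on the vehicle arrays, 13.76, 13.50 and 13.50 on the wild-type CCl4 arrays, and 13.35, 13.43 and 13.37 on the knockout CCl4 arrays. Unlike *Rps19*, it was lower on all 3 knockout than on all 3 wild-type CCl4 arrays, although that genotype difference, -0.20, had an adjusted p of 0.439 (limma). The CCl4 difference was 0.83 ± 0.15 (SE, adjusted p = 0.00141, limma). The other 9 of the 40S genes that rose did so by 0.45 to 0.75, from *Rps2* and *Rps7* to *Rps26*. *Rps6*, the substrate of the S6 kinases, was among them at 0.65 (adjusted p = 0.0273, limma).

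The 60S genes that rose ran from *Rpl31* at 0.48 to *Rpl13a* at 1.10. *Rpl13a* codes for a protein that can leave the ribosome and silence inflammatory mRNAs in human monocytes. Its intensity was 9.97 and 9.12 on the wild-type and knockout vehicle arrays. After CCl4 it was 10.13, 9.85 and 10.77 on the wild-type CCl4 arrays and 11.08, 10.99 and 11.07 on the knockout CCl4 arrays. As with *Rpl22l1*, the wild-type CCl4 arrays lay on both sides of their vehicle array and the knockout arrays were the highest. Its mean CCl4 difference was 1.10 ± 0.22 (SE, adjusted p = 0.00231, limma). In wild type alone it was 0.28, with an adjusted p of 0.535 (limma).

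*Rpl12* codes for a protein at the base of the stalk, to which elongation factors bind. Its intensity was 12.62 and 12.36 on the vehicle arrays, 13.35, 12.68 and 13.63 on the wild-type CCl4 arrays and 13.84, 13.87 and 13.81 on those of the knockout. The wild-type arrays spread over almost a doubling, while the knockout arrays were close together. The CCl4 difference was 1.04 ± 0.22 (SE, adjusted p = 0.00362, limma).

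*Rplp0* codes for the protein that anchors the acidic stalk proteins, among them that of *Rplp1*. The intensity of *Rplp0* was 6.63 and 6.33 on the vehicle arrays, 7.19, 7.09 and 7.39 on the wild-type CCl4 arrays, and 7.90, 7.83 and 8.20 on the knockout CCl4 arrays. The 3 sets of arrays did not overlap. The CCl4 difference was 1.12 ± 0.16 (SE, adjusted p = 0.000389, limma). The probe of *Rplp0* was dim, with raw intensities of 129 and 100 on the vehicle arrays and 195 to 294 after CCl4, and its other probe was not above background on any array. *Rplp1* was 14.44 on both vehicle arrays and between 14.11 and 14.49 on the CCl4 arrays, a difference of -0.19 ± 0.16 (SE, adjusted p = 0.369, limma). Its probe was among the brightest, with raw intensities from 18100 to 22500, and probes as bright as that moved little in other genes, as described below. The difference between these responses was not tested.

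Of the 4 tested paralogs, only *Rpl22l1* passed the threshold for CCl4. *Rpl36al* had a difference of 0.35 (adjusted p = 0.083, limma), beside 0.76 for its partner *Rpl36a*, which rose (adjusted p = 0.00397). *Rps27l*, a target of p53 in human cells, had a difference of 0.10 and *Rps27* one of 0.08, with adjusted p-values of 0.675 and 0.706 (limma). Their probes were bright, with means of 14.11 and 13.71, and probes as bright as these moved little in other genes, as described below. The *Rpl36al* probe, at 13.75, was in that range too, whereas that of *Rpl36a* was dimmer, at 12.39. *Rpl7l1* had a difference of 0.09 (adjusted p = 0.732, limma). *Rpl5*, which with 5S rRNA can bind Mdm2 and stabilise p53, had a difference of 0.40 (adjusted p = 0.0615, limma). It was above both vehicle arrays on all 6 CCl4 arrays. Beside these, the p53 targets *Cdkn1a*, *Ccng1* and *Mdm2* rose by 3.26, 1.66 and 1.53 (adjusted p from 1.26e-06 to 3.44e-05, limma).

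The response was examined in each genotype on its own. In wild type, 6 members rose and 1 fell, a share of 10.9% higher against 12.4% of all genes and of 1.82% lower against 11.6%, so the share that rose was near that of all genes. In the knockout 21 rose and 1 fell, which is 38.2% higher against 13.1% of all genes and 1.82% lower against 12.9%. The members' median difference was 0.24 for wild type and 0.63 for the knockout. The wild-type values depended on the scaling: with medians in place of quantiles 3 rose and 1 fell, and when arrays were scaled on the probes of all other genes 1 rose and 1 fell, with a median over the members of -0.01. Shares of all genes called with these scalings are not given here.

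The members that rose in wild type were *Rps4x* at 1.01 ± 0.21, *Rpl36a* at 0.83 ± 0.23, *Rps26* at 0.74 ± 0.22, *Rps19* at 0.73 ± 0.23, *Rpl28* at 0.71 ± 0.21 and *Rpl27* at 0.70 ± 0.23 (log2 difference ± SE, adjusted p from 0.0059 to 0.0432, limma). For *Rpl28*, a 60S protein, the intensity was 12.70 on the wild-type vehicle array and 13.44, 13.43 and 13.35 after CCl4. In the knockout it was 12.79 after vehicle and 13.01, 13.21 and 12.97 after CCl4. The wild-type CCl4 arrays were above those of the knockout, and the knockout difference of 0.28 had an adjusted p of 0.351 (limma). Of the 7 members called in wild type, *Rpl28* was not called in the knockout, and the other 6 were called in both genotypes.

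In the knockout the largest increases were those of *Rpl22l1* at 2.13 ± 0.39, *Rpl13a* at 1.92 ± 0.31, *Rps19* at 1.74 ± 0.23, *Rplp0* at 1.64 ± 0.23, *Rpl12* at 1.48 ± 0.31 and *Rpl34* at 1.41 ± 0.33 (log2 difference ± SE, adjusted p from 0.000491 to 0.0105, limma). *Rpl34*, a 60S protein, was 12.53 on the wild-type vehicle array and 12.32, 12.01 and 13.05 on the wild-type CCl4 arrays. In the knockout it was 11.92 after vehicle and 13.43, 13.25 and 13.31 after CCl4. Its wild-type difference was -0.07, with the wild-type vehicle array inside the range of the CCl4 arrays.

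**Figure D3:**
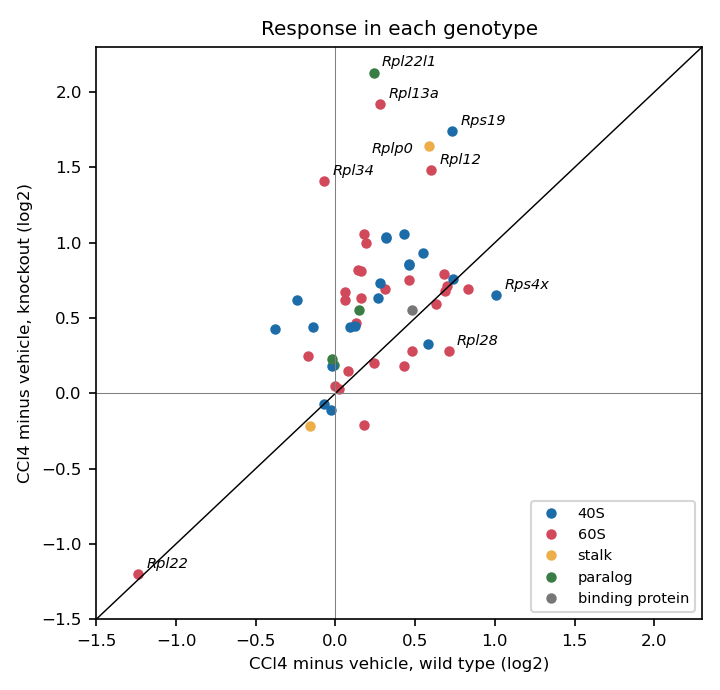
CCl4 minus vehicle in wild type (horizontal, log2) and in the knockout (vertical, log2), with 1 point per tested gene and a diagonal where both are equal. 43 of 55 points lie above the diagonal, and Rpl22 lies at the lower left in both genotypes.

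The knockout response exceeded the wild-type response in 43 of 55 members and in 3570 of all 7257 genes. The test of this difference (interaction, limma) called 0 of 55 members, against 0.358% of all genes, and 9 members had an unadjusted p under 0.05, against 20% of all genes. The difference was 1.90 ± 0.55 for *Rpl22l1* (adjusted p = 0.121, limma) and 1.64 ± 0.43 for *Rpl13a* (adjusted p = 0.0954). Each of these differences includes the gap between the lone vehicle arrays. There the knockout array was below that of wild type in 39 of 55 members, against 50.9% of all genes. That gap ran from -0.85 to 0.40 over the members, with a median of -0.20 against -0.01 over all genes. In 3 members (*Rps3a1*, *Rps25* and *Rpl9*) every wild-type CCl4 array was below its vehicle array and every knockout CCl4 array above its own, as in 6.85% of all genes. In 1 member, *Rpl41*, the order was turned, as in 6.23% of all genes. These shares of members were below those of all genes. Without wild-type CCl4 array 3, 3 members passed the interaction test, namely *Rpl34*, *Rpl13a* and *Rpl22l1*.

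Between the genotypes after CCl4, where 3 arrays stood against 3, few members passed the threshold. In the knockout 3 of 55 were higher, against 2.94% of all genes, and 0 were lower, against 3.6%, and 11 had an unadjusted p under 0.05, against 25.2%. The median difference was 0.20, against -0.01 over all genes. The members that were higher were *Rpl22l1* at 1.17 ± 0.28 (SE, adjusted p = 0.0327, limma), *Rpl34* at 0.87 ± 0.23 (adjusted p = 0.0495) and *Rplp0* at 0.75 ± 0.16 (adjusted p = 0.0257). *Rpl13a* had a difference of 0.79 (adjusted p = 0.0515, limma). None of the 3 calls held without wild-type CCl4 array 1, without wild-type CCl4 array 2 or without any 1 of the knockout CCl4 arrays, and 7 members passed without wild-type CCl4 array 3. The share of all genes called without these arrays is not given here. In a fit over all probes, the dimmer probe of *Rps24* was also higher in the knockout, by 0.97 ± 0.22 (SE, adjusted p = 0.0287, limma). Its brighter probe had a difference of 0.16 in that fit (adjusted p = 0.614, limma).

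All 3 knockout CCl4 arrays lay above all 3 wild-type arrays in 15 of 55 members, against 14% of all genes. They lay below in 5, against 16.3%: *Rpl22*, *Rpl28*, *Rpl38*, *Rps20* and *Rps4x*. For *Rpl38* this was the order on its brightest probe, with a difference of -0.26. On its dimmer probe all 3 knockout arrays lay above all 3 wild-type arrays, with a difference of 0.67 (adjusted p = 0.103, limma over all probes). In *Rpl22* the nearest arrays of the genotypes both rounded to 8.13.

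The wild-type CCl4 arrays differed among themselves in the level of the whole group of genes. Array 2 was the lowest of the 3 for 39 of the 55 members and array 3 the highest for 35. Relative to each gene's mean over the 8 arrays, the members' median was -0.03, -0.15 and 0.17 on the wild-type CCl4 arrays and 0.19, 0.23 and 0.22 on the knockout CCl4 arrays. It was -0.23 on the wild-type and -0.40 on the knockout vehicle array. Wild-type array 3 was thus near the knockout arrays, and these medians were farther apart within wild type than within the knockout. Before normalization, members held 4.94%, 4.56% and 5.99% of the summed raw intensity of the wild-type CCl4 arrays, 5.81% to 6.11% of that of the knockout CCl4 arrays, and 4.64% and 4.23% after vehicle. With wild-type array 2 left out, 13 members were called in wild type in place of 7. The count was 3 without array 1 and 5 without array 3. Counts over all genes with an array left out are not given here.

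**Figure D4:**
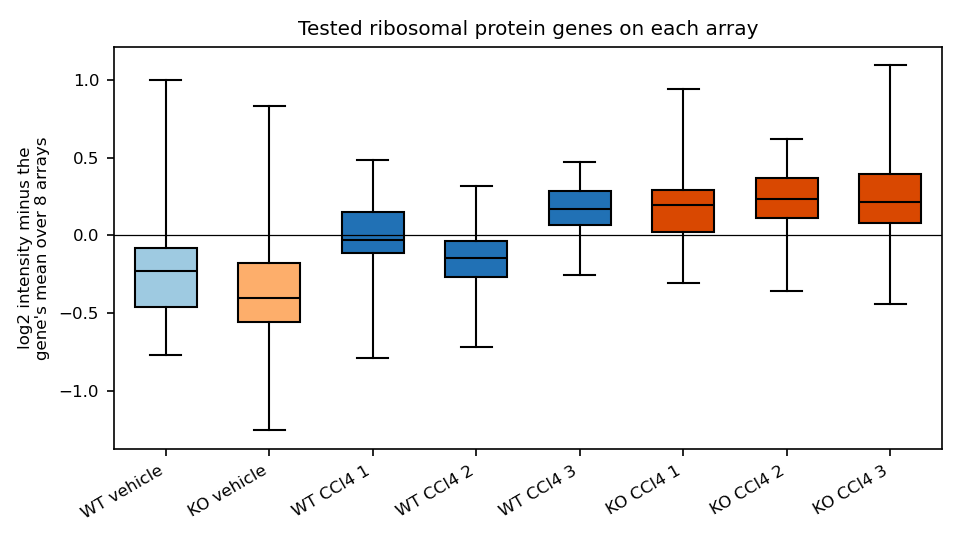
Log2 intensity of the 55 tested genes on each array, relative to each gene's own mean over the 8 arrays (box: quartiles, line: median, whiskers: lowest and highest gene). The medians run from -0.40 on the knockout vehicle array to 0.23 on knockout CCl4 array 2, and wild-type CCl4 array 3 lies with the knockout CCl4 arrays.

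Responses differed with the brightness of the probe. Among the probes used for each gene, the dimmest were those of *Rps19bp1*, *Rplp0* and *Rpl22*, with mean log2 intensities of 6.65, 7.32 and 8.44, and all 3 passed the threshold for CCl4. The brightest were *Rpl9*, *Rplp1* and *Rps12*, at 14.30, 14.30 and 14.18, with CCl4 differences of 0.04, -0.19 and -0.07, and none passed (adjusted p from 0.369 to 0.884, limma). With the members cut into equal parts by mean intensity, at 12.41 and 13.71, 12 of the 18 dimmest rose and 1 fell, 14 of the 18 in the middle rose, and 3 of the 19 brightest rose. The medians were 0.51, 0.66 and 0.11. Among the 43 other genes as bright as the last part, 0 rose and 1 fell, whereas in the middle range 44 of 186 rose and 36 fell. Over the 55 members, Spearman's rho between mean intensity and CCl4 difference was -0.47 and Pearson's r was -0.14. The values share the same arrays and normalization, and the division by intensity was made after the values were seen.

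Probes of the same gene did not all give the same value. Over all probes, 34 of 64 rose with CCl4 and 1 fell, against 18.6% and 18.9% of the 10128 probes tested. Of the 8 genes represented by more than 1 tested probe, 0 had probes called in both directions. For *Rpl38* the bright probe, with a mean of 14.06, had a CCl4 difference of 0.02 (adjusted p = 0.929, limma over all probes), and the dimmer one, with a mean of 9.84, rose by 1.81 ± 0.23 (SE, adjusted p = 0.000131). The dimmer probe read 8.49 and 8.47 on the vehicle arrays, 10.24, 9.37 and 10.26 on the wild-type CCl4 arrays and 10.52, 10.60 and 10.75 on those of the knockout. All 6 CCl4 arrays were above both vehicle arrays.

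*Rps24* likewise had 0.15 (adjusted p = 0.524, limma) on the bright probe and a rise of 1.23 ± 0.22 (SE, adjusted p = 0.00115) on the dimmer one. *Rpl31* rose on both probes, by 0.48 on the brighter and 1.14 on the dimmer. *Rps9* rose on both, by 0.68 and 0.62, and *Rps3* had 0.68 on its brighter probe, which passed, and 0.53 on the other (adjusted p = 0.0704, limma). The 3 probes of *Rpl23* had, from brightest to dimmest, 0.30, 0.83 and 0.29, of which the 0.83 passed. The dimmer probes of *Rps19* and *Rpl27a* were above background on only 5 and 1 of the 8 arrays, so their differences are not compared with those of the brighter probes. The brighter probe thus did not have the smaller difference in every gene. Ribosomal protein genes have many near-identical processed copies in the genome, and which transcripts each probe binds was not examined here. Each gene is represented above by its brightest probe unless another is named.

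**Figure D5:**
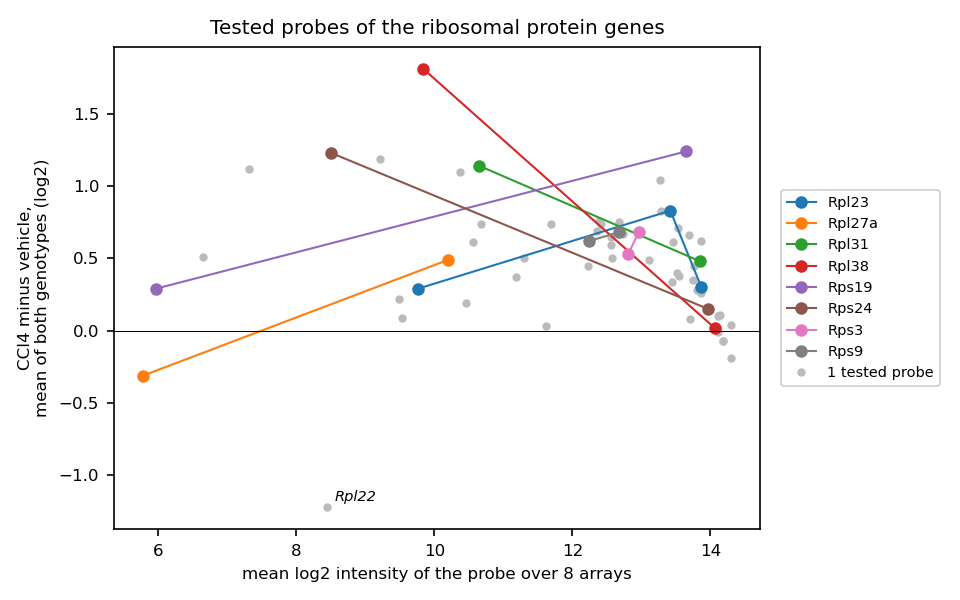
Log2 difference between CCl4 and vehicle arrays, averaged over the genotypes, against the mean log2 intensity of each of the 64 tested probes. Lines join probes of the 8 genes that have several. The dimmer probes of Rpl38 and Rps24 stand at 1.81 and 1.23, while their bright probes are near 0. The dim probes of Rps19 and Rpl27a were not above background on all arrays.

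Other parts of the translation machinery were read from the same fit, in which 18.9% of all genes rose and 18.6% fell. The shares of initiation factor and tRNA synthetase genes that rose were below that share. Of the tested genes in the elongation factor list, 4 of 6 rose with CCl4, among them *Eef1g* by 0.84 and *Eif5a* by 0.82, and 1, *Eef2*, fell by 0.73. The 4 that rose include *Eef1e1*, at 0.61, which carries the name but does not code for an elongation factor. Of the initiation factor genes 3 of 26 rose and 3 fell, and of the aminoacyl-tRNA synthetase genes 3 of 18 rose and 0 fell. Of the genes for chaperones on the ribosome, 1 of 4 rose and 1 fell. Of the ribosome biogenesis genes, which code for factors that process rRNA and assemble subunits, 10 of 39 rose and 1 fell, with a median of 0.26, and *Nop58*, a protein of box C/D snoRNPs, rose by 1.20. Other known TOP mRNAs had 3 of 15 higher and 2 lower, with a median of 0.15, beside 0.48 for the ribosomal protein genes. The share that rose was near that of all genes. This list is not separate from the others: it shares genes such as *Eef1g*, *Eef2*, *Npm1* and *Btf3* with them and includes the ribosomal protein genes *Rpsa* and *Fau*. Of the genes listed for control of TOP mRNA translation, 0 of 6 were called. That list holds *Eif4ebp1* but not *Eif4ebp2*, which was placed among the initiation factors. The CCl4 difference of *Eif4ebp2* was -1.30 (adjusted p = 0.000196, limma). *Rpsa* and *Fau*, which code for 40S proteins but fall outside the symbol rule, had differences of -0.44 and -0.05, and neither was called. The *Rpsa* probe was dim, at 5.38 to 6.70. At such levels the dimmer *Rps19* probe was not above background on all arrays, so little can be read from the *Rpsa* difference.

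The proteins of the mitochondrial ribosome, a comparison chosen after values were seen, had 13 of 70 genes higher and 4 lower with CCl4, with a median of 0.11. That is 18.6% higher, near the 18.9% of all genes. In wild type 1 of 70 rose, against 12.4% of all genes, and in the knockout 17 of 70 rose, against 13.1%, and 2 fell, against 12.9%. Between the genotypes after CCl4 their median was 0.31, with 4 of 70 higher in the knockout, against 2.94% of all genes, beside 0.20 and 3 of 55 for the cytosolic genes. The difference between the cytosolic and mitochondrial sets was not tested.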

How the data were processed

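Liver RNA of 8 samples was measured on 8 bead arrays, and the groups were taken from the labels. The deposited raw table holds, per the file headers, 1 linear intensity for each probe on each array, not normalized between arrays, and a detection p-value. The deposited value table is the same intensity minus 1 constant per array (48.6 to 56.8) and was used as an alternative; why the constant was taken off is not given in the sources used here. Median raw intensities were 60.9 to 76.9, and 8899 to 9821 probes passed a detection p-value of 0.01 on each array. The number of arrays limits the precision.

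Intensities were corrected and quantile-normalized with neqc (limma 3.58.1, R 4.3.3, offset 16). Probes below that p-value on all arrays of 1 or more groups were kept (10128), and each gene was represented by its probe of highest mean (7257 genes). In the platform annotation 23978 probes have a single symbol, 0 have several and 1719 are without one. The gene identifiers that the platform annotation gives for all 82 member probes were found in RefSeq GRCm38.p6. Probe sequences were not aligned. Means of 4 groups were fitted with lmFit and eBayes on 4 residual degrees of freedom, 2-sided, with the single vehicle arrays taken to vary as the CCl4 arrays did. The fit was tested on simulated data.

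Members, gene lists and the rule for named genes were chosen with earlier results of these data known. In each comparison called members were named, or the 6 largest changes each way if more than 12, with the paralogs, stalk proteins, *Rpl5*, the 3 brightest and the 3 dimmest. *Rpl28* on single arrays, *Rps6*, the probe pairs and the promoters shown were chosen after their values were seen. Alternatives covered background, scaling, filter, probe choice, variance model, a replicate block and each array left out.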

Additional observations from a re-analysis of the deposited data

Results flagged for a closer look

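In 4 members every CCl4 array of wild type lay on one side of its vehicle array and every CCl4 array of the knockout on the other side of its own. In *Rps3a1*, *Rps25* and *Rpl9* wild type was lower and the knockout higher after CCl4, a pattern seen in 6.85% of all genes, and in *Rpl41* the order was turned, as in 6.23% of all genes. The shares of members with these patterns, 3 and 1 of 55, were below those of all genes. The knockout response minus the wild-type response was 0.86 for *Rps3a1* (adjusted p = 0.248, limma), 0.81 for *Rps25* (adjusted p = 0.303), 0.42 for *Rpl9* (adjusted p = 0.51) and -0.39 for *Rpl41* (adjusted p = 0.519). The test of the difference was not passed by any of the 4, and each rests on 1 vehicle array per genotype.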

How the results depend on the processing

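The number of members called depended on the scaling and on single arrays. Shares of all genes called are not given for these alternatives. A change in the members alone can thus not be told from a change over all genes. With median scaling 4 members were called in wild type. Scaling on the probes of all other genes gave 6 between the genotypes, 18 for the mean CCl4 difference and 2 in wild type, and the deposited values or no probe filter gave 0 between the genotypes, with 9 and 16 at an unadjusted p under 0.05 (limma). With a replicate block 16, 3 and 13 members were called for the mean CCl4 difference, in wild type and in the knockout. Deviations of arrays with the same number correlated at -0.122, -0.111 and -0.013, and those with different numbers at -0.011 to 0.135. The deviations were taken from means of only 3 arrays. They cannot tell whether arrays of the same number were processed together. Leaving out 1 array at a time gave 0 to 7 calls between the genotypes, 7 to 34 for the mean CCl4 difference, 3 to 13 in wild type, 14 to 27 in the knockout and 0 to 3 for the interaction. For the mean CCl4 difference, leaving out a vehicle array leaves the response of the other genotype alone, which gave 7 and 22. Wild-type CCl4 arrays 1 to 3, knockout CCl4 arrays 1 to 3 and the knockout vehicle array each moved a count by over 1.5 times. Median scaling shifted the median of all genes to -0.17 between the genotypes and 0.10 in wild type.

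Of 1399 repeats of single member values, 1154 stayed on the same side of the threshold with their direction, 212 no longer passed, 22 newly passed and 11 changed sign. The sign changed for *Rpl5* in wild type (-0.07 with median scaling, -0.25 scaled on other genes), *Rplp1* scaled on other genes (0.21 between the genotypes, 0.15 for the interaction) or without a wild-type CCl4 array (from -0.14 to 0.05 in both), and *Rpl22* for the interaction (-0.09, median scaling). It also changed for *Rpl34* in wild type (-0.37 to 0.16 over the arrays left out), *Rpl22l1* in wild type (-0.13 to 0.48) and *Rpl34* for the mean CCl4 difference (-0.07 and 1.41 when a vehicle array was left out, which are the responses in wild type and in the knockout). The cause was not tested.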
